A study of Mus musculus with 3 samples.

Results

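Oog1, the oocyte-specific homeobox genes Obox1, Obox2, Obox3, Obox5 and Obox6, and the oocyte-expressed 2'-5' oligoadenylate synthetase genes Oas1c, Oas1d and Oas1e were followed in mouse four-cell embryos. These 9 genes were chosen by the gene name printed for each probe, out of 27962 gene names on the array. The set was selected on earlier knowledge of these data, in which the brightness of Oog1 and the ratios of Oog1 and Oas1c had been seen, so those values are given as a description, without a test. Of the 9 genes, 8 had a probe of their name, with 1 probe and 1 spot each, and 6 were bright enough to be tested. Obox1 had no probe of its own name.

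The study exposed oocytes to a hydrostatic pressure (HP) of 20 MPa for 60 min at 37 °C, fertilised them by intracytoplasmic sperm injection (ICSI) and cultured the embryos to the four-cell stage. The control oocytes were kept alike without pressure and were also injected and cultured. The sample labels give ICSI, whereas the title of the series speaks of in vitro fertilisation. Mouse strain and age were not given in the sources used here. Each of the 3 arrays carried 1 HP pool, labelled with Cy5, against 1 control pool, labelled with Cy3. The HP pools held 44, 30 and 37 embryos in replicates 1, 2 and 3, and the control pools 36, 33 and 24. No array had the dyes exchanged, so the dye and the pressure treatment cannot be told apart. The RNA was amplified in 2 rounds before labelling.

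Oog1 (oogenesin 1) encodes a leucine-rich repeat protein of the PRAME family, a large group of clustered genes in the mouse. Its transcript is made in oocytes and is present in early cleavage embryos. The Obox genes encode homeodomain transcription factors of oocytes and early embryos and take part in the activation of the embryonic genome. Oas1 proteins sense double-stranded RNA and make 2-5A, the activator of RNase L, in the interferon response. Several mouse Oas1 copies are expressed mainly in the oocyte, and the protein of Oas1d is known to lack synthetase activity.

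Members of these families resemble one another, so the first question was what each probe can measure. All probes were 60 bases long. The annotation in the scanner files lists more than 1 gene for 4 of the 8 probes, under current RefSeq names. The Oog1 probe also lists Pramel25, the Oas1d probe also lists Oas1h, and the Obox2 probe also lists Obox1. The Obox5 probe lists Obox2, Obox3 and Obox5. The signal of such a probe may come from any of its listed genes, and the Obox1 transcript was read only through the Obox2 probe. The remaining 4 probes, for Obox3, Obox6, Oas1c and Oas1e, each list a single gene. The central 30 bases (positions 16 to 45) of the 3 shared Obox and Oas1 probes are shown because the annotation ties each of them to more than 1 paralog.
Obox2 probe, also Obox1: atacccatagaaataagttcccaaatacct
Obox5 probe, also Obox2 and Obox3: gtgttacaaagatggagatcaagatatggt
Oas1d probe, also Oas1h: acatgcaggctgggtttatggtagtgcagg

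The Oog1 probe was the only member probe that shared an identical run of at least 20 bases with a probe of another gene on the same strand. Over the whole array, 607 of 41174 probes (1.47%) did so. Its partner was the probe for E330017N17, now named Pramel27, another PRAME family gene. The run covered positions 29 to 48 of the Oog1 probe and positions 4 to 23 of the partner. In the 30 bases from the start of the run, 27 were identical, shown here in capitals. No other member probe shared more than 14 bases with another gene's probe on the same strand, and the longest run on the opposite strand was one of 17 bases between the Obox5 and Ier5l probes.
Oog1 probe, positions 29 to 58: CTTCCTCTGAGCTGGTGAATggATGTtGCA
E330017N17 probe, positions 4 to 33: CTTCCTCTGAGCTGGTGAATaaATGTaGCA

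The same E330017N17 probe overlapped the probe for Oog3 (oogenesin 3) by 48 bases, of which 39 were identical. The pair is shown over the first 30 bases of the Oog3 probe, with the 25 identical bases in capitals. These 3 probes thus read one related stretch of different PRAME family transcripts. How much each spot binds the transcripts of the other genes was not tested.
E330017N17 probe, positions 13 to 42: AGCTgGTGAATaAATGTAgCATCTGCtAaA
Oog3 probe, positions 1 to 30: AGCTaGTGAATgAATGTAcCATCTGCaAgA

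On the mm7 mouse genome build used for the array design, the Oog1 probe lies on chromosome 12 from 85511591 to 85511650. The Oas1e, Oas1c and Oas1d probes lie on chromosome 5, from 120020550 to 120020609, from 120034248 to 120034307 and from 120155487 to 120155546. The Obox2 and Obox3 probes lie on chromosome 7, from 13578642 to 13578701 and from 13653978 to 13654037. The Obox6 probe is placed on unordered sequence of chromosome 7 (1350674 to 1350859), and the Obox5 probe on sequence with no chromosome (2005517 to 2006037). Their spans of 186 and 521 bases are longer than a probe. Whether the probes lie in coding sequence or in a UTR was not analysed here. In the RefSeq table of assembly GRCm38.p6, Obox7, Obox2, Obox1, Obox3, Obox5 and Obox6 follow each other as the 6 protein-coding Obox genes, beside 47 Obox pseudogenes. Oas1e stands between Oas3 and Oas1c, while Oas1d ends the Oas1 row beside Rph3a. Oog1 lies on chromosome 12, apart from Oog2, Oog3 and Oog4 on chromosome 4.

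Across the arrays, 17.5% to 19.9% of the spots of HP pools and 18.5% to 23.2% of those of control pools were well above background, a call of the scanner software for each spot. No spot was saturated. The log2 ratios of the arrays of replicates 2 and 3 resembled each other more (Pearson r = 0.65 over 8590 tested probes) than either resembled replicate 1 (0.22 for both). The HP pools of replicates 2 and 3 were the closest pair of pools, with an SD of their level differences of 0.23 (log2), against 0.45 to 0.54 for the other pairs. Results are therefore also given with these 2 arrays counted as 1. Some markers of the embryo itself were present, with 10 of 16 oocyte and cleavage-stage probes well above background in some channel and 8 tested. The other 6, those for Ooep, Nlrp5, Padi6, Zar1 and Zp2, never were well above background. Of the other cell types, 14 of 16 cumulus and granulosa probes, 8 of 11 sperm and testis probes and 3 of 5 trophoblast probes never were. These counts take any pool, so they cannot be set against the shares per pool given above. Amhr2, a receptor gene of granulosa cells, was well above background in all 3 HP and all 3 control pools (mean log2 intensity 9.86), with ratios of 0.03, 0.22 and 0.18. The summed normalised level of the cumulus and granulosa probes was 2081 to 2169 in HP pools and 1980 to 2137 in control pools, most of it from probes near background.

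The members fell into 3 classes of signal. Oog1 was among the brightest spots of the array, rank 38 of 41174 probes by mean log2 intensity (13.22). Obox3, Oas1c and Oas1d were dim but well above background in most pools, in 3 and 3, 3 and 2, and 3 and 3 of the HP and control pools. Oas1e was well above background in 2 HP and 2 control pools, and Obox6 in 1 HP and 3 control pools. Obox2 and Obox5 were not well above background in any pool. Brightness ranks spots, and differs between probes for reasons of sequence as well as of transcript number, so it orders no gene against another.

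**Figure D1:**
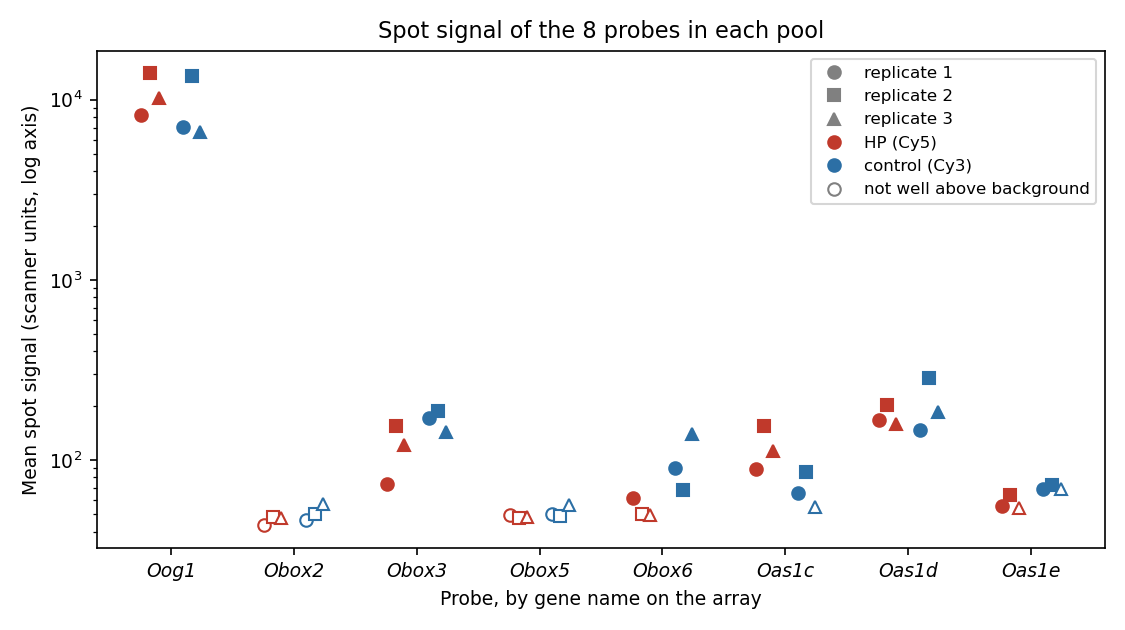
Mean spot signal in scanner units (log axis) of the 8 probes, in the 3 HP pools (Cy5, red) and the 3 control pools (Cy3, blue), with 1 point per pool and open symbols where the spot was not well above background. Oog1 lies between 6593 and 14006, while the Obox2 and Obox5 points are all open.

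In the comparison of HP with control pools, a probe was tested when either channel was well above background on at least 2 of the 3 arrays. Ratios are log2 values of HP over control after background correction and a loess curve fitted to the ratio against brightness within each array. The curve did not fully remove the trend among the brightest probes, as given for Oog1 below. No probe passed an adjusted p under 0.05 in limma (0 of 8590, 0%), and 1528 (17.8%) had an unadjusted p under 0.05. Of the 6 tested members, 3 were higher in HP pools on all 3 arrays (Oog1, Oas1c and Oas1d), against a background of 22.7% of all tested probes. Obox6 alone was lower on all 3 arrays, against a background of 24.9%. With median centring, 1 member was higher on all 3 arrays (Oas1c, background 3.83%) and 3 were lower (Oas1e, Obox3 and Obox6, background 58.0%). The median log2 ratio of the 6 members was 0.23, and that of all tested probes was −0.02. Since 2 of the members higher on all arrays were known to be so when the set was drawn up, nothing is read from that count. In pools of embryos, fewer embryos or cells with a transcript and less transcript per cell cannot be told apart.

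Oog1 gave mean signals of 8174, 14006 and 10232 scanner units in the HP pools of replicates 1, 2 and 3, and of 7023, 13547 and 6593 in the control pools. The HP spot was the brighter one on every array, but the 2 ranges overlap. The HP over control ratio of these signals, with background subtracted and on the log2 scale, was 0.22, 0.05 and 0.63. After loess the ratios were 1.01, 1.64 and 1.80, a mean of 1.48 ± 0.20 (moderated SE, n = 3), or 2.79-fold. The normalised levels then no longer overlapped, at 13.44, 14.43 and 14.10 in HP pools and 12.43, 12.80 and 12.30 in control pools (log2). The loess curve supplied 0.79, 1.59 and 1.17 of the 3 ratios.

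Most bright probes had a lower signal in Cy5 than in Cy3, and the curve moved them up together. Among the tested probes whose mean log2 intensity lay in the same step of 0.5 as Oog1, the median ratio before loess was −0.62 in replicate 1 (52 probes), −0.89 in replicate 2 (22 probes) and −0.86 in replicate 3 (22 probes). The upper quartiles were −0.30, −0.47 and −0.67. After loess the median of these probes was 0.15 in replicate 1, 0.68 in replicate 2 and 0.32 in replicate 3. Probes as bright as Oog1 thus stood above 0 as a group after loess. Before loess, Oog1 lay above the upper quartile of these probes on every array. With median centring in place of loess, its ratio was 0.25, −0.04 and 0.59, a mean of 0.27 ± 0.18. The direction on the array of replicate 2 thus differs between these normalisations. The scanner software's own ratio was 0.83, 1.31 and 1.56. Only 66, 17 and 36 tested probes were brighter than Oog1 on the 3 arrays, so it lay near the bright end of the curve.

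**Figure D2:**
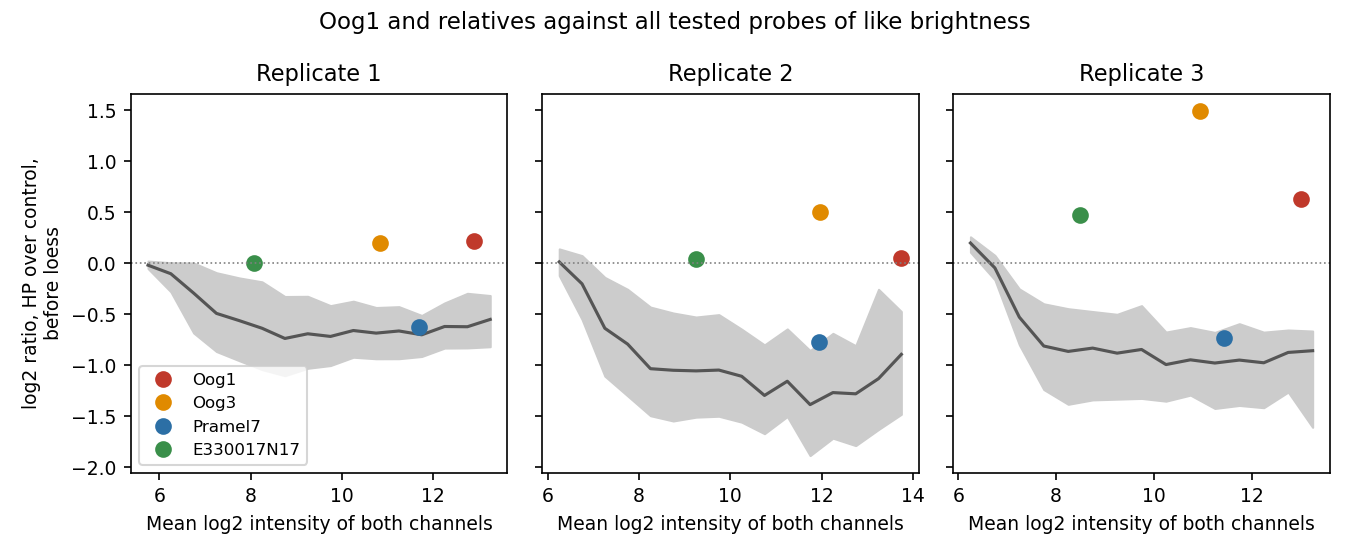
Log2 ratio of HP over control before loess against the mean log2 intensity of both channels, in 1 panel per array. The line and grey band are the median and the quartiles of all tested probes in steps of 0.5 (steps with at least 20 probes), and the points are Oog1, Oog3, Pramel7 and E330017N17. Oog1, Oog3 and E330017N17 lie above the band on each array, while Pramel7 lies within or close to it.

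The other PRAME family and oogenesin probes were read from a list of names and descriptions with 12 probes, of which 6 were tested. Of those, 4 had a higher and 2 a lower mean ratio, with a median of 0.20, and none passed the test. With median centring 2 were above and 4 below 0, and the median of the list was −0.75, beside −0.37 for all tested probes. Oog3 had the highest ratio of the list. Its mean signals were 1927, 4725 and 3304 in HP pools and 1678, 3341 and 1150 in control pools, brighter in HP on each array. Its loess ratios were 0.89, 1.85 and 2.49, a mean of 1.74 ± 0.34 (limma adjusted p = 0.179), and its mean with median centring was 0.70.

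E330017N17, named here for its probe's match to Oog1 and Oog3, gave loess ratios of 0.53, 1.01 and 1.22. Its signals were 255, 592 and 404 in HP pools and 252, 581 and 275 in control pools. After loess the 3 probes with related sequence had their smallest ratio in replicate 1 and their largest in replicate 3. This order was not theirs alone, since Oosp1 and Uhrf1, given below, had it too. Those genes were picked for ratios near those of Oog1. How many of all tested probes had this order was not counted. With median centring, Oog1 and E330017N17 had their smallest in replicate 2. Oog2, not well above background in any control pool, gave signals of 44.0, 88.5 and 71.1 in HP pools and 51.1, 47.1 and 49.9 in control pools. The HP spot of replicate 1 was not well above background either, and was dimmer than the control spot, so no fold is given (limma adjusted p = 0.379). The 2 Oog4 probes were too dim to test.

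Other tested probes of the list had other ratios. Their sequences were not compared with those of the Oog3 and E330017N17 probes. Pramel7, the brightest probe of the list and a gene known for lowering DNA methylation in pluripotent cells, had ratios of 0.11, 0.58 and 0.30 and a mean of 0.33 ± 0.14 (limma adjusted p = 0.317). Its signals were 2652, 3007 and 2132 in HP pools and 4100, 5157 and 3562 in control pools, dimmer in HP on each array, and its mean with median centring was −0.74. Pramel4 had the lowest mean, −0.37 ± 0.33, from 0.25, −0.12 and −1.24 (limma adjusted p = 0.554). Its control signal ran from 227 to 664 while its HP signal stayed between 151 and 194. Pramel6 was lower on all 3 arrays, at −0.23, −0.24 and −0.19.

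The 5 named genes whose 3 ratios lay nearest to those of Oog1, by Euclidean distance among the tested probes of this array, were Atf7ip2, Oosp1, Usp28, Uhrf1 and Ankrd6. Their distances were 0.35, 0.39, 0.39, 0.40 and 0.44. The median over the tested probes was 2.70, but these genes were picked as the nearest, so nothing is read from that gap. Oosp1 (oocyte secreted protein 1) had ratios of 0.70, 1.40 and 1.76. Uhrf1, needed for the maintenance of DNA methylation, had 0.61, 1.60 and 1.73. The likeness rests on 3 arrays that share the same dye order.

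Among the Oas1 genes, Oas1c gave mean signals of 89.6, 155 and 112 in HP pools and of 65.8, 85.8 and 55.1 in control pools. The HP range of these signals lay above the control range, but the local background was also higher in the HP channel. It was 34.5 to 39.0 there and 26.0 to 28.0 in the control channel. With background subtracted, the values were 55.1, 118 and 72.7 in HP pools and 39.8, 57.8 and 28.1 in control pools, and the ranges overlapped. The levels after loess did not overlap, at 7.07, 7.61 and 7.04 against 6.45, 6.34 and 6.34 (log2). The control spot of replicate 3 was not well above background. Loess ratios were 0.63, 1.27 and 0.71, a mean of 0.87 ± 0.17, or 1.82-fold. The mean was 0.56 with median centring and 3.21 with the scanner software's own ratio, so the sign held and the size did not.

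Oas1d, whose protein is known to restrain the 2-5A response in the oocyte, had mean signals of 166, 203 and 158 in HP pools and of 147, 284 and 184 in control pools. The HP spot was the brighter one in replicate 1 only. After loess the ratios were 0.63, 0.34 and 0.32, a mean of 0.43 ± 0.12 (limma adjusted p = 0.231), which did not pass the test. With median centring they were 0.21, −0.50 and −0.30, a mean of −0.20, so the direction depends on the normalisation.

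Oas1e had mean signals of 55.6, 63.9 and 54.2 in HP pools and of 68.5, 72.3 and 69.4 in control pools, close to background. Its loess ratios were −0.05, 0.06 and 0.03, a mean of 0.01 ± 0.10 (limma adjusted p = 0.961). The HP spot was the dimmer one on each array and the signal ranges did not overlap, whereas the levels after loess did. With median centring the ratios were −0.14, −0.10 and −0.07, a mean of −0.11. By mean ratio after loess the 3 Oas1 probes ordered as Oas1c, Oas1d and Oas1e, and with median centring Oas1d and Oas1e changed places. Oas1c and Oas1d had the same ratio, 0.63, in replicate 1 after loess.

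**Figure D3:**
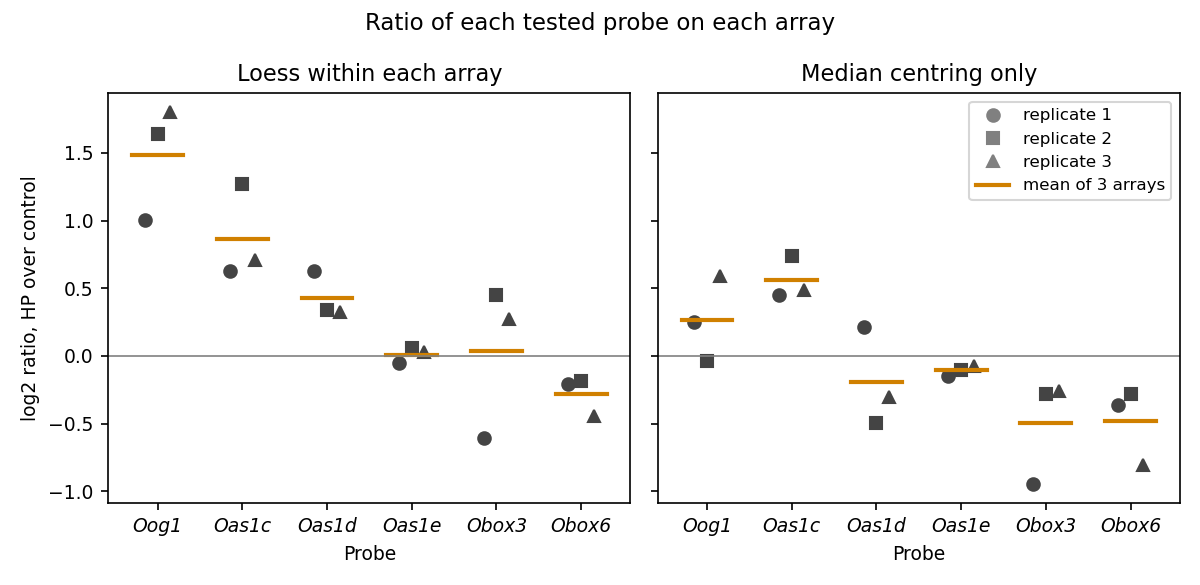
Log2 ratio of HP over control of the 6 tested probes on each array, after loess (left) and with median centring only (right), with bars at the mean of 3 arrays. Oas1c is above 0 and Obox6 below 0 on each array in both panels, whereas Oas1d, Oas1e and Obox3 have means of opposite sign in the 2 panels.

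The wider Oas family held 12 probes, and only the one for Oasl2, an interferon-induced synthetase with ubiquitin-like repeats, was tested. Oasl2 gave 107, 147 and 120 scanner units in control pools, well above background in all 3, and 38.5, 53.6 and 45.3 in HP pools, not well above background in any. The HP level is thus known only as a bound. The mean loess ratio was −0.67 ± 0.14, from −0.88, −0.75 and −0.40 (limma adjusted p = 0.183). This difference did not pass the test. It ran opposite to Oas1c on each array, although the difference between the 2 genes was not tested. Of 38 probes for the 2-5A pathway and interferon response genes, 29 were never well above background. The 2 probes for Abce1, the RNase L inhibitor, were tested and had mean ratios of 0.02 and 0.13 (−0.51 and 0.02 with median centring), and neither passed.

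Among the Obox genes, only Obox3 and Obox6 were bright enough to be tested. Obox3, transcribed around the activation of the embryonic genome, had mean signals of 73.7, 155 and 121 in HP pools and of 171, 188 and 144 in control pools. The HP spot was the dimmer one on each array, while the ranges of the 2 groups overlapped. After loess the ratios were −0.61, 0.45 and 0.27, a mean of 0.04 ± 0.25 (limma adjusted p = 0.943). Replicate 1 therefore differed in sign from the other 2 arrays, and without it the mean was 0.36. Median centring gave −0.95, −0.28 and −0.26, below 0 on each array, with a mean of −0.50. Before loess the Obox3 ratios were −0.98, −0.19 and −0.22. Tested probes in the same steps of brightness had medians of −0.49, −0.79 and −0.53 there, so most of them were below 0 too.

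Obox6, a homeobox gene also expressed in preimplantation embryos, had mean signals of 61.6, 49.98 and 49.6 in HP pools and of 90.4, 67.8 and 139 in control pools. The control range of these signals lay above the HP range, whereas the levels after loess overlapped. Those levels were 6.61, 6.32 and 6.72 in HP pools and 6.82, 6.50 and 7.16 in control pools (log2). The HP spots of replicates 2 and 3 were not well above background, so there the HP level is known only as a bound. Loess ratios were −0.21, −0.18 and −0.44, a mean of −0.28 ± 0.12 (limma adjusted p = 0.314), which did not pass the test. The scanner software's own ratio averaged −2.10, and the ratio with an offset of 0 averaged −0.58. The control level itself differed by 0.66 (log2) between replicates 2 and 3, the largest such gap of any member between these control pools.

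Obox2, whose probe also stands for Obox1, gave 43.4 to 48.5 scanner units in HP pools and 46.5 to 56.8 in control pools. Obox5 gave 47.8 to 49.5 and 48.9 to 56.5. No ratio is given for either, and a change in these transcripts was not detectable at this brightness. The 3 probes of further Obox relatives, among them those for Obox7 and Crxos, were not well above background in any pool.

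Genes known for their burst of transcription at the two-cell stage were set beside the Obox probes. Of 22 such probes 10 were tested, with 5 mean ratios above and 5 below 0, and none passed. Over all 8590 tested probes, 4107 were above and 4483 below 0. With median centring, 2 of the 10 were above and 8 below 0. Their median was then −0.73, beside −0.37 for all tested probes. After loess the highest mean belonged to a probe for Zscan4c (Gm397 on the array), a marker of the two-cell state, with 0.22, 1.27 and 1.27. Its control was well above background in 1 of 3 pools (limma adjusted p = 0.234), and its mean with median centring was 0.54. Another Zscan4c probe was not well above background in any pool and was not tested. The lowest belonged to Sp110 (5830484A20Rik on the array), with −0.68, −1.24 and −0.53 (limma adjusted p = 0.193). Its mean with median centring was −1.93.

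Only 3 arrays bear on each ratio. Tested probes printed in 10 spots had a median within-array SD of the log2 ratio of 0.06 when dim (45 probes) and 0.04 when bright (11 probes). The SD over the arrays was 0.42 for Oog1, 0.35 for Oas1c and 0.57 for Obox3. It was 0.17 for Oas1d, 0.14 for Obox6 and 0.06 for Oas1e. The spots come from other probes, since each member had 1 spot, and the arrays from different pools. With replicates 2 and 3 counted as 1 array, the mean ratio was 1.36 for Oog1, 0.81 for Oas1c, 0.48 for Oas1d, −0.01 for Oas1e, −0.12 for Obox3 and −0.26 for Obox6.

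**Figure D4:**
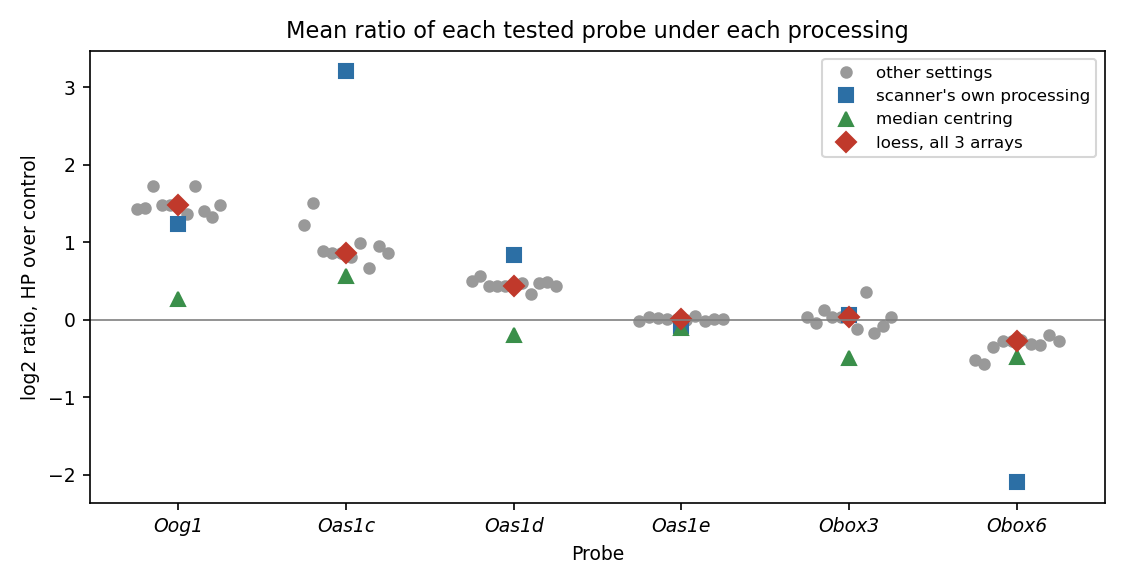
Mean log2 ratio of HP over control of the 6 tested probes under each way of processing, with loess on all 3 arrays in red, median centring in green, the scanner software's own ratio in blue and the other settings in grey. Oog1 spans 0.27 to 1.72, Oas1c spans 0.56 to 3.21 and Obox6 spans −2.10 to −0.20, while Oas1d, Oas1e and Obox3 have points on both sides of 0.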

How the data were processed

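RNA of 3 HP and 3 control pools was hybridised to 3 two-colour Agilent arrays. The deposited scanner files, made with Agilent Feature Extraction 9.5.1.1 per the submitters' processing notes, give an intensity per spot and colour and a log10 ratio of Cy5 over Cy3. The deposited series value table holds the same log10 ratios. Mean signals were background-corrected with normexp (offset 50) and normalised by loess within arrays, with control spots at weight 0 and outlier spots left out (limma 3.58.1, R 4.3.3). Of 45018 spots, 43379 were not controls and made up 41174 probes. A moderated test of the mean ratio against 0 was run over 8590 probes with Benjamini-Hochberg adjustment, and was tested on simulated data. Levels per pool come from the same ratios after Aquantile normalisation between arrays. The offset shrinks ratios of dim probes towards 0.

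Members and lists were chosen with earlier results of these data known. All member probes are named. Of each list of relatives, the probes with the highest, lowest and brightest values are named, and some further family members were named after their values were seen. The series calls the pools biological replicates, and p-values measure the spread between these pools. RefSeq names were matched for 22951 probes through accessions. One gene of the interferon list is not reported here.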

Additional observations from a re-analysis of the deposited data

How the results depend on the processing

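No member passed an adjusted p of 0.05 in limma under any of the 14 alternatives that tested it. Over all tested probes the count past that threshold was 0 except with median centring, which gave 1140 (5 higher, 1135 lower). The members' median ratio, 0.23, was 0.45 with the scanner's ratios and with the series value table, 0.29 with no offset, −0.15 with median centring, 0.042 with no filter on dim probes (8 members) and 0.43 with both channels above background (3 members). Leaving out 1 array each gave a range of 0.23 (without replicate 2) to 0.35 (without replicate 1). Oog1 kept its direction in 14 alternatives, and Oas1c and Obox6 in the 13 that tested them. Among these, another filter, trended moderation and separate channels leave the mean ratio of a probe unchanged. Those alternatives could not turn a direction, and the series value table repeats the scanner's ratios. Median centring turned Oas1d (−0.20), Oas1e (−0.11) and Obox3 (−0.50). Oas1e also turned with the scanner's ratios and the series value table (−0.083) and with no background subtraction (−0.022). Counting replicates 2 and 3 as 1 (−0.0054) and leaving out replicate 2 (−0.014) turned it too. Without replicate 1 (0.044) or without replicate 3 (0.0032) it did not turn. Obox3 also turned with no offset (−0.043) and with replicates 2 and 3 as 1 (−0.12). It turned without replicate 2 (−0.17) and without replicate 3 (−0.079), but not without replicate 1 (0.36). The cause was not tested. The ratio within an array pairs the pools. Treating channels separately, with no replicate block, called 0 probes. That setting leaves each mean ratio unchanged by design, so its members' median of 0.23 is no further result. Signal near background limits Obox2, Obox5, Obox6 and Oas1e.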
